A study of Homo sapiens with 12 samples.

Results

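The genes described here are the human histone genes, of 2 kinds. The clustered genes, which sit together on a few chromosome stretches and carry symbols that begin with HIST1 to HIST4, encode the core histones H2A, H2B, H3 and H4 and the linker histone H1. The variant genes, with symbols that begin with H1F, H2AF or H3F, mostly lie apart from these. An exception is H2AFJ (chr12:14774383-14778002), which lies near HIST4H4 (chr12:14767999-14771131). Members were chosen by symbol alone, and 87 of the 19647 genes measured had such a symbol, 71 of them clustered and 16 variant. They were measured by RNA sequencing in 12 libraries from A549, a line of human lung adenocarcinoma cells, in 4 groups of 3. The groups are A549 cells overexpressing NR0B1 (NR0B1_OE), the control of that overexpression (OEC), A549 cells in which a hairpin RNA targets NR0B1 (shNR0B1), and the control of that knockdown (shNC). NR0B1 (DAX1) belongs to the nuclear receptors, has no known ligand and mostly represses transcription. No other treatment is named for any group. The labels do not say what drives the transgene, which hairpin was used, whether a line is 1 clone or whether the 3 libraries of a group came from separate cultures, so p-values measure the spread between these libraries, which may be technical. Overexpression was compared with its control, knockdown with its own control, and these responses with each other. The pairs share no libraries.

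Clustered histone genes are transcribed mainly in S phase, when new DNA needs new nucleosomes. Most of their mRNAs have no intron and no poly(A) tail. In place of the tail they end just after a short stem-loop, which is bound by SLBP, the stem-loop binding protein, and is needed for 3′ end processing, translation and rapid decay when DNA synthesis stops. The NPAT coactivator drives their transcription as cells enter S phase. Variant genes are mostly transcribed through the whole cell cycle and give polyadenylated mRNAs. These are spliced for some, among them H3F3A, H3F3B, H2AFZ and H2AFY. Others, among them H1F0, H1FX, H2AFX and H2AFJ, are annotated here with a transcript of 1 exon only. Among their products H3.3 is placed in chromatin outside replication, H2A.Z marks promoters, H2A.X is phosphorylated at DNA breaks, macroH2A is found in repressed chromatin, and H1.0 accumulates in resting and differentiated cells.

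The stem-loop is the sequence that sets clustered mRNAs apart, so it was searched for in the transcripts of the table that match GENCODE 29 (GRCh38), as the histone 3′ stem-loop of 6 stem bases, 4 loop bases and 6 stem bases. It was found in 36 of 82 clustered transcripts, from 32 of 71 genes, in 1 of 39 variant transcripts, from H2AFX, and in 4 of 82116 other transcripts (0.00487%). A further 39 clustered transcripts of 1 exon held no match. The length of 37 of these 39 is a multiple of 3, as it is for a transcript annotated over its coding length only. Some are longer than others of their family, as HIST1H4C-201 at 435 bases is beside HIST1H4D-201 at 312, both of H4. Whether each ends before a stem-loop could appear was not checked. The loops of genes on which the results turn, and of H2AFX, are printed 5′ to 3′ as DNA on the strand of the gene, with the 4 loop bases in capitals.
HIST2H2AA4 (chr1:149851574-149851589, + strand): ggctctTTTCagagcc
HIST3H2A (chr1:228457369-228457384, − strand): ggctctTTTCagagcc
HIST1H3H (chr6:27810516-27810531, + strand): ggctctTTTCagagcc
HIST1H2AC (chr6:26124669-26124684, + strand): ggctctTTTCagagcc
HIST1H2BD (chr6:26158587-26158602, + strand): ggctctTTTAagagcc
HIST4H4 (chr12:14770724-14770739, − strand): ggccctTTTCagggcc
HIST1H4J (chr6:27824459-27824474, + strand): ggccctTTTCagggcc
HIST2H4A (chr1:149833032-149833047, + strand): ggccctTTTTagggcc
H2AFX (chr11:119094898-119094913, − strand): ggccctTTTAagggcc
The stem differed between families. Every match in H4 transcripts, 9 in all, had the stem ggccct, and every match in H2B and H3 transcripts, 13 and 7, had ggctct. H2A transcripts had ggctct in 7 of 7 matches, with a changed second arm in 1, from HIST1H2AG. H2AFX, the variant gene known for giving both a stem-loop mRNA and a polyadenylated one, had the stem of H4.

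Promoters of 4 members that moved in different ways are shown from RefSeq (GRCh38.p14), from 250 bases before to 50 bases after the start of the gene. Capitals mark matches to 3 motifs, on either strand. They are the CCAAT box, the TATA box searched as TATAAA, and the octamer ATTTGCAT, which reads ATGCAAAT on the other strand.
HIST1H2AC (chr6:26123922-26124221, + strand): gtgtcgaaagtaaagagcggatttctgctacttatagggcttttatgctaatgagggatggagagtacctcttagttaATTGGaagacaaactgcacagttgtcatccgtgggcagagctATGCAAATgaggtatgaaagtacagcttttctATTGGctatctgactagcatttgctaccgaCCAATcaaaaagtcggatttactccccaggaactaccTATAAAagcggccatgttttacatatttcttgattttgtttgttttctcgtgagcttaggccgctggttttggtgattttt
HIST4H4 (chr12:14771082-14771381, − strand): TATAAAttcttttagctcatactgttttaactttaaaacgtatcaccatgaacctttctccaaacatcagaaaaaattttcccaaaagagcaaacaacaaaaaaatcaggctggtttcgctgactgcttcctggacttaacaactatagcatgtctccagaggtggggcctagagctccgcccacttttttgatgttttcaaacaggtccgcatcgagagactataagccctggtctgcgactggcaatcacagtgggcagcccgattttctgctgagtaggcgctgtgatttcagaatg
H3F3A (chr1:226061581-226061880, + strand): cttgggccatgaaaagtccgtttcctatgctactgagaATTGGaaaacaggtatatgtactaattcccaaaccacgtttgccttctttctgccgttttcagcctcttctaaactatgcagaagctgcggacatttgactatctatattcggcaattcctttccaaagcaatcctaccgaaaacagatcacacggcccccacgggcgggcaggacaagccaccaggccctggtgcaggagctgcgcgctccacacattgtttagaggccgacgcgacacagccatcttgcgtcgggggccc
H3F3B (chr17:75779730-75780029, − strand): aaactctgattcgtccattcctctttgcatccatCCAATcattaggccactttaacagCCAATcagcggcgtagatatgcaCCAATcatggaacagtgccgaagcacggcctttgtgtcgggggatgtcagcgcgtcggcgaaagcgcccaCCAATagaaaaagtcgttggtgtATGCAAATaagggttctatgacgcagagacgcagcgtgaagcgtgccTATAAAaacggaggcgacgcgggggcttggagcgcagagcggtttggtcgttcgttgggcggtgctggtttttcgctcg
RefSeq held such a window for 75 of the 87 members, 61 clustered and 14 variant. CCAAT was present in 83.6% of clustered, 78.6% of variant and 34.6% of all 35116 promoters. TATAAA was present in 67.2% of clustered, 28.6% of variant and 11.5% of all promoters. The octamer ATTTGCAT, the letters read by POU2F1 (Oct-1), was present in 34.4% of clustered, 7.14% of variant and 1.77% of all promoters. Clustered families differed in these letters. The octamer was in 68.8% of H2A and 69.2% of H2B promoters, in 7.69% of H3 promoters and in none of H1 or H4. CCAAT was in every H1, H2A, H2B and H3 promoter with a window and in 23.1% of those of H4. No member promoter held matches of different motifs that overlap. A match is a description of letters, and no match says only that they are not in this window.

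The depth per library was 15049011 to 22797076 expected counts. Levels are given as CPM, the counts of a gene scaled to the size of its library, unless FPKM is named. NR0B1 stood at 98.9, 81.8 and 84.1 CPM in NR0B1_OE and at 17.9, 60.1 and 55.2 CPM in OEC. It stood at 2.99, 3.31 and 5.84 CPM in shNR0B1 and at 16.3, 21.1 and 13.3 CPM in shNC. The fall in the knockdown passed the test (log2 fold change −2.06 ± 0.42, SE; adjusted p = 0.00593), and the difference under overexpression did not (0.99 ± 0.38; adjusted p = 0.0912). OEC held 1.40 log2 units more NR0B1 than shNC (adjusted p = 0.0189), so the control groups were not alike in the targeted gene. Of 9 markers of A549 and lung epithelium, 7 reached 1 CPM and the surfactant gene SFTPB and the protease gene NAPSA did not in any library. Of 11 markers of fibroblasts, endothelium and leukocytes, 9 stayed under 1 CPM in every library, among them the T cell gene CD3E at 0. CD68 and THY1 were above it. shNR0B1 replicate 2 stood apart from its group, at −19.98 on the first principal component of all genes, where the other shNR0B1 libraries were at 32.69 and 45.9. OEC replicate 1 stood apart less far on the second component.

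Reads were sequenced from RNA labelled as enriched mRNA. How it was enriched is not given in the sources used here, and clustered mRNAs without a poly(A) tail are recovered to a degree that depends on it, so the part of enrichment in any level below was not tested. Of the 87 members, 66 reached an FPKM of 1 in at least 3 libraries and were tested, 56 clustered and 10 variant. Among the 15 clustered genes that were not, 5 had 0 counts in every library after rounding: HIST1H2AA, HIST2H3PS2, HIST1H4G, HIST1H4K and HIST2H2AA3. The highest value among the other 10 was 7.55 CPM, in HIST3H2BB. Of the 6 variant genes not tested, the germ line H1 genes H1FNT and H1FOO, and H3F3C, a copy derived from H3F3B, were at 0 in every library. The H2A.B genes H2AFB1, H2AFB2 and H2AFB3 did not pass 0.515 CPM. In these libraries 3 counts equal between 0.155 and 0.235 CPM, so values that low rest on a few reads, and this covers counting error only.

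Clustered histone genes are copies of one another, and reads that fit several copies had to be shared out. HIST2H2AA4, a canonical H2A gene at chr1:149851061-149851624 on the + strand, shares 97.1% of its 50-base words with HIST2H2AA3. Its values cannot be told apart from those of that copy, which is listed at 0. HIST2H3A and HIST2H3C have an identical transcript of 1656 bases and identical values. HIST1H4J shares 81.2% of its words with HIST1H4K, which was at 0. HIST1H2AJ shares 83.7% with HIST1H2AI, and HIST2H4A shares all of its words with HIST2H4B. Among the tested clustered genes, 42 share at most 10% of their words with any other gene of the table and 14 share more. Of the variant genes tested, the most shared was H3F3B, with 6.86%, through H3F3C.

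Per length, HIST2H2AA4 was the most abundant histone mRNA, at a mean of 1396 FPKM over the 12 libraries (range 688 to 2403). Its lowest library was below the highest of HIST2H4A, at 699 FPKM. It was followed by HIST2H4A, which encodes H4, at 404 FPKM, HIST1H2BC, an H2B gene, at 350 FPKM, and HIST2H2BF, another H2B gene, at 303 FPKM. HIST1H2AM and HIST2H2AC (H2A) had 287 and 243 FPKM, HIST1H4C and HIST1H4H (H4) 242 and 224 FPKM, HIST1H2BD and HIST1H2BL (H2B) 217 and 208 FPKM, HIST1H2AJ (H2A) 186 FPKM, and HIST1H3B, which encodes H3.1, 181 FPKM. The ranges of neighbours in this order overlap. Among variant genes H3F3B led with a mean of 422 FPKM (range 321 to 638), ahead of H3F3A at 146 and H1F0 at 134 FPKM, whose lowest library had 30.9 FPKM. H2AFY, which encodes macroH2A1, had 94.7 FPKM, H2AFZ 93.8, H2AFX 50.8, H1FX 44.7 and H2AFV, a second H2A.Z gene, 44.3 FPKM.

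**Figure D1:**
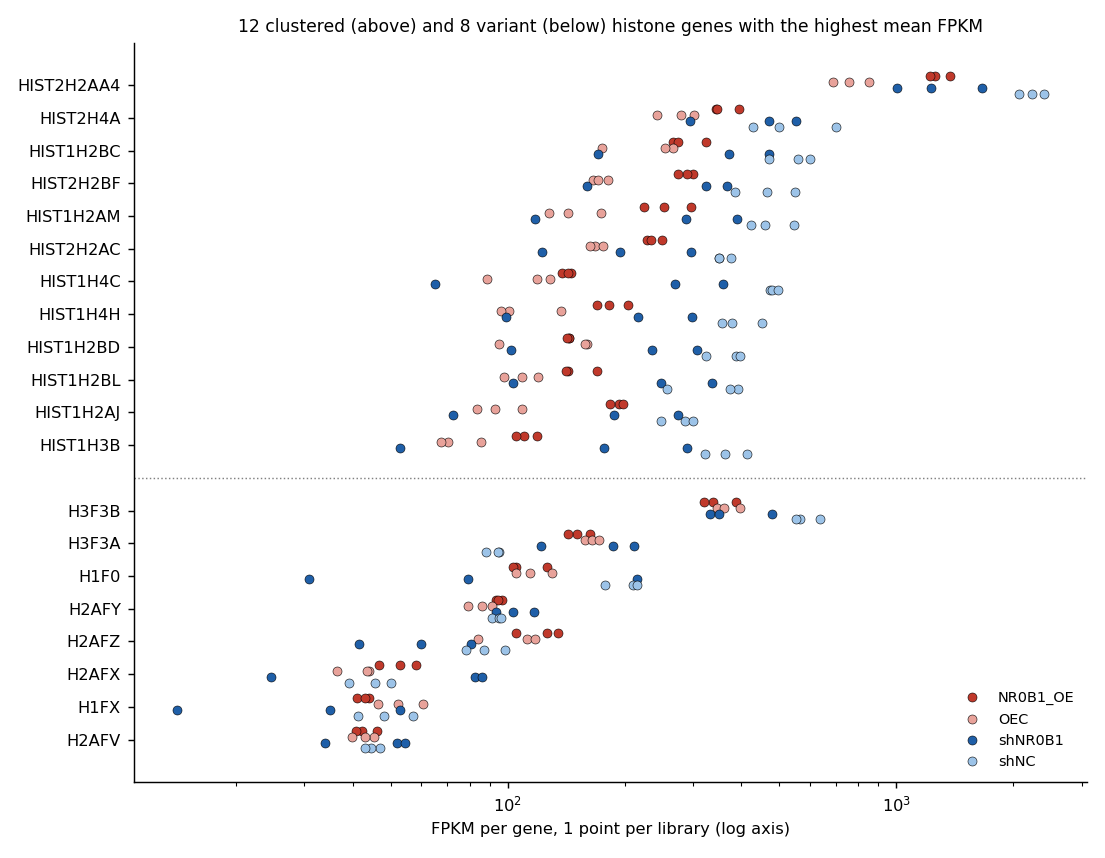
FPKM (log axis) of the 12 clustered and 8 variant histone genes with the highest mean over the 12 libraries, 1 point per library, coloured by group. HIST2H2AA4 has the highest mean of the genes shown, 1396 FPKM, and the variant H3F3B, at 422 FPKM, is the next highest on average.

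Summed over all 71 genes, clustered histone mRNA was higher under NR0B1 overexpression than in its control, and lower in the knockdown than in its control. The sum was 4724, 4364 and 4205 CPM in NR0B1_OE, against 3135, 3296 and 3062 CPM in OEC. It was 6982, 2868 and 5346 CPM in shNR0B1, against 9010, 8550 and 7424 CPM in shNC. In both pairs the groups did not overlap. The means were 4431 ± 266 and 3164 ± 120 CPM under overexpression and in its control (SD, n = 3), 1.40 times as much or 0.49 log2 units, and 5065 ± 2072 and 8328 ± 816 CPM in the knockdown and its control, 0.72 log2 units less. In such bulk samples fewer cells in S phase and less histone mRNA per cell cannot be told apart. shNR0B1 replicate 2, the library that stood apart, had the lowest sum of all 12. Without it the knockdown sum was 0.43 log2 units below its control and the groups still did not overlap. The control groups differed more than either pair, with an OEC sum 1.40 log2 units below that of shNC.

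The variant genes differed less. Their sum was 1784, 1632 and 1650 CPM in NR0B1_OE, against 1665, 1587 and 1750 CPM in OEC, a difference of 0.02 log2 units with overlapping groups. It was 1608, 1847 and 1514 CPM in shNR0B1, against 1996, 1901 and 2158 CPM in shNC, or 0.28 log2 units less with no overlap. The ratio of the clustered to the variant sum was 2.65, 2.67 and 2.55 in NR0B1_OE, against 1.88, 2.08 and 1.75 in OEC. In shNR0B1 it was 4.34, 1.55 and 3.53, against 4.51, 4.50 and 3.44 in shNC. So the ratio was higher in every overexpressing library than in its controls, while the knockdown libraries overlapped their controls. As log2 ratios the differences were 0.47 and −0.52. The second rests on shNR0B1 replicate 2: it was −0.07 without that library and −0.81 without shNR0B1 replicate 1. No p-value was computed for these sums.

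**Figure D2:**
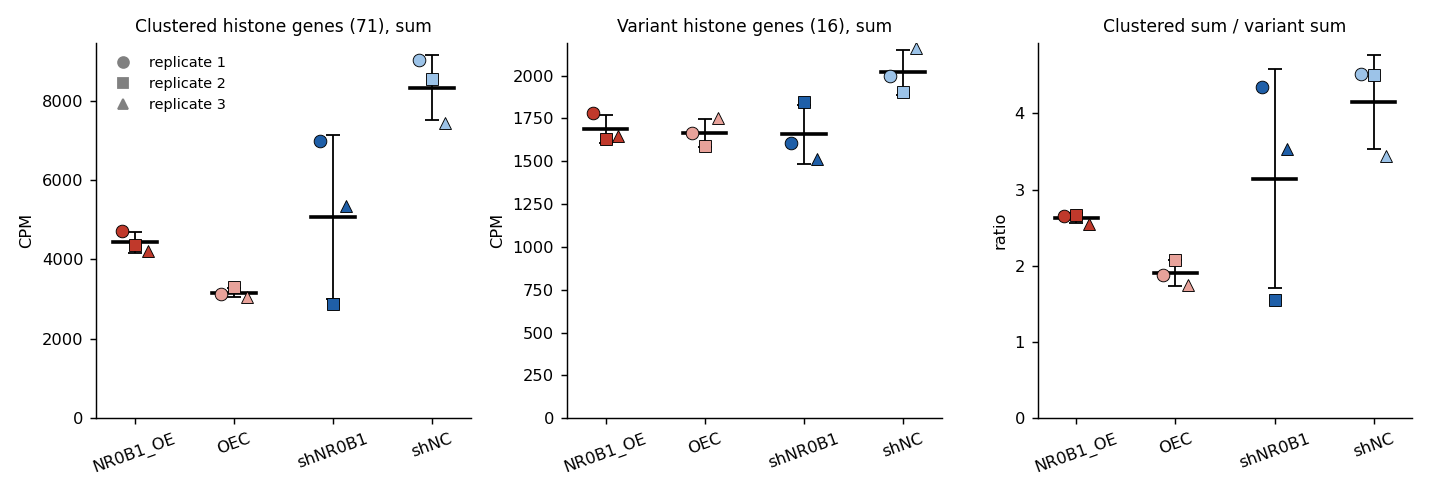
Summed CPM of the 71 clustered and the 16 variant histone genes, and the ratio of these sums, for each library, with the group mean and SD. Clustered sums of the NR0B1_OE libraries (4205 to 4724 CPM) lie above all OEC libraries (3062 to 3296 CPM), and those of shNR0B1 (2868 to 6982 CPM) below all shNC libraries (7424 to 9010 CPM).

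Under overexpression, 3 of the 56 tested clustered genes were called higher at an adjusted p under 0.05 (quasi-likelihood test of edgeR, Benjamini-Hochberg adjustment over all 11908 genes tested), or 5.36%, against 9.87% of all genes tested. None was called lower, against 8.2% of all genes. At an unadjusted p under 0.05 there were 17 clustered genes in either direction. DESeq2 and limma also called 0 lower, against 12.1% and 7.51% of all genes. The called share of clustered genes thus lay below that of all genes. The direction was more uniform: 47 of 56 had a fold change above 0, with a median of 0.48, where the median of all genes was −0.03. In 33 of 56 the NR0B1_OE libraries all lay above the OEC libraries, against 21.6% of all genes, and in 2 they all lay below, against 21.9%. The count of calls depended on the libraries in the fit. It was 25 of 56 without shNR0B1 replicate 2, where 14.8% of all genes were called higher, 23 with the libraries of the overexpression arm alone, 6 without OEC replicate 1 or shNR0B1 replicate 1, and 1 without NR0B1_OE replicate 1, OEC replicate 2 or OEC replicate 3.

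The genes called higher were HIST3H2A, HIST2H2AA4 and HIST1H3H. HIST3H2A (chr1:228456979-228457873, − strand) encodes an H2A and lies in the small HIST3 cluster. It had 52.4, 41.0 and 43.7 CPM in NR0B1_OE, against 26.5, 15.8 and 14.8 CPM in OEC. Every overexpressing library exceeded every control, with a log2 fold change of 1.26 ± 0.20 (adjusted p = 0.00348), and the call held in every alternative tried. HIST2H2AA4 had 970, 875 and 848 CPM in NR0B1_OE, against 613, 524 and 485 CPM in OEC. These groups did not overlap either (0.73 ± 0.17; adjusted p = 0.0163). The call was lost without NR0B1_OE replicate 1, OEC replicate 2 or OEC replicate 3, at adjusted p of 0.0546, 0.0614 and 0.0694. HIST1H3H (chr6:27810064-27811300, + strand), which encodes H3.1, had 131, 105 and 103 CPM in NR0B1_OE, against 76.5, 57.0 and 50.5 CPM in OEC. It passed narrowly (0.88 ± 0.28; adjusted p = 0.0493), and its call was lost without any 1 library of NR0B1_OE or shNC, or without OEC replicate 2 or 3, at adjusted p from 0.0627 to 0.156.

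By family, H2A genes showed the most uniform direction under overexpression. All 14 tested H2A genes had fold changes above 0, with a median of 0.79, and 2 were called. The medians were 0.34 for 14 H2B genes, 0.48 for 11 H3 genes with 1 called, and 0.49 for 12 H4 genes. The 5 linker H1 genes differed from these in sign, with a median of −0.10 and 4 below 0. Summed H1 was 213, 233 and 218 CPM in NR0B1_OE, against 218, 282 and 269 CPM in OEC, with overlapping groups. Core histone sums of all 4 families were higher in every NR0B1_OE library than in every OEC library. Whether families differ from each other was not tested.

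In the knockdown, 13 of 56 clustered genes were called lower, or 23.2%, against 11.5% of all genes, and none was called higher, against 12.4%. At an unadjusted p under 0.05 there were 28 clustered genes in either direction, and DESeq2 and limma each called 24 lower and 0 higher. Over all genes DESeq2 and limma called 14.6% and 14.1% lower, and 15.4% and 9.84% higher. Fold changes were below 0 for 49 of 56, with a median of −0.70, where the median of all genes was 0.03. In 29 the shNR0B1 libraries all lay below the shNC libraries, against 20.6% of all genes, and in none all above, against 20.2%. The called genes came from every family: 3 of 5 H1, 4 of 14 H2A, 1 of 14 H2B, 2 of 11 H3 and 3 of 12 H4 genes. Here too the count depended on the libraries. It was 28 without shNR0B1 replicate 1, 18 without shNR0B1 replicate 2, 8 without shNR0B1 replicate 3, 5, 8 and 7 without shNC replicates 1, 2 and 3, and 5 with the knockdown arm alone. In the same order, 8.07%, 14.7%, 12.1%, 7.59%, 8.36%, 6.49% and 7.98% of all genes were called lower in these fits.

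Among the H2A genes, HIST1H2AC (chr6:26124145-26139116, + strand) had 203, 106 and 143 CPM in shNR0B1, against 354, 305 and 312 CPM in shNC. All knockdown libraries lay below all controls (−1.10 ± 0.19; adjusted p = 0.00247), and the call held in every alternative tried. Under overexpression it had 99.4, 103 and 97.5 CPM, against 101, 94.6 and 83.1 CPM in OEC, with overlapping groups. HIST2H2AA4 had 1144, 683 and 853 CPM in shNR0B1, against 1504, 1601 and 1403 CPM in shNC (−0.75 ± 0.17; adjusted p = 0.0101). HIST2H2AC had 141, 58.0 and 93.4 CPM in shNR0B1, against 163, 174 and 164 CPM in shNC (−0.78 ± 0.23; adjusted p = 0.0338). Neither pair of groups overlapped. The call of HIST2H2AC was lost without shNR0B1 replicate 3 or any 1 shNC library, at adjusted p from 0.0727 to 0.0845. HIST1H2AE, a low H2A gene, had 0.567, 3.13 and 0.799 CPM in shNR0B1, against 6.34, 5.22 and 7.77 CPM in shNC (−2.11 ± 0.60; adjusted p = 0.0274). Its call was lost without shNR0B1 replicate 1 or 3 or shNC replicate 1 or 3, at adjusted p from 0.061 to 0.0842.

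Of the 5 linker histone genes tested, 3 fell. HIST1H1C, which encodes H1.2, had 172, 46.8 and 96.4 CPM in shNR0B1, against 277, 225 and 235 CPM in shNC (−1.22 ± 0.34; adjusted p = 0.0243). HIST1H1E, which encodes H1.4, had 137, 41.6 and 74.3 CPM, against 183, 174 and 177 CPM (−1.08 ± 0.31; adjusted p = 0.0281). In both, all knockdown libraries lay below all controls and replicate 2 was lowest. Both calls were lost without shNR0B1 replicate 3, shNC replicate 1 or shNC replicate 3, and that of HIST1H1E also without shNC replicate 2, at adjusted p from 0.0602 to 0.074. HIST1H1T (chr6:26107419-26108136, − strand), the testis H1 gene, was low throughout, at 0.258, 1.35 and 0.307 CPM in shNR0B1 against 5.46, 4.39 and 6.72 CPM in shNC (−3.11 ± 0.57; adjusted p = 0.00344). Its lower knockdown values rest on a few reads. HIST1H1D, which encodes H1.3, had 202, 55.8 and 107 CPM in shNR0B1, against 223, 242 and 226 CPM in shNC, with no overlap and without passing (−0.92 ± 0.34; adjusted p = 0.0696). HIST1H1B, which encodes H1.5, was the 1 linker gene with a fold change above 0. It had 34.8, 4.91 and 21.2 CPM in shNR0B1, against 7.98, 8.84 and 5.41 CPM in shNC, and 3.55, 6.94 and 4.77 CPM in NR0B1_OE, against 0.0636, 2.29 and 2.34 CPM in OEC. Neither difference passed the test (1.45 ± 0.76, adjusted p = 0.185, and 1.69 ± 0.82, adjusted p = 0.171), and the libraries within a group differed widely.

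Of the H3 genes, HIST1H3F (chr6:26250195-26250605, − strand) had 43.6, 18.3 and 23.6 CPM in shNR0B1, against 71.9, 70.9 and 63.3 CPM in shNC (−1.27 ± 0.26; adjusted p = 0.00569). HIST1H3H had 149, 60.0 and 126 CPM, against 210, 229 and 187 CPM (−0.90 ± 0.28; adjusted p = 0.0372). Knockdown libraries lay below all controls for both, and the call of HIST1H3H was lost without NR0B1_OE replicate 2 or 3 or any 1 shNC library, at adjusted p from 0.05006 to 0.0974. Of the H4 genes, HIST1H4J (chr6:27824108-27824480, + strand) had 88.4, 30.1 and 59.8 CPM in shNR0B1, against 187, 142 and 136 CPM in shNC (−1.38 ± 0.31; adjusted p = 0.00958). HIST1H4I had 81.7, 26.3 and 54.9 CPM, against 138, 123 and 111 CPM (−1.19 ± 0.30; adjusted p = 0.0165). HIST4H4, the only gene of the HIST4 locus (chr12:14767999-14771131, − strand), had 133, 57.8 and 93.1 CPM, against 185, 194 and 160 CPM (−0.92 ± 0.24; adjusted p = 0.02). All 3 H4 genes were lower in every knockdown library than in every control. The calls of HIST1H4I and HIST4H4 were lost without shNC replicate 1, at adjusted p of 0.0552 and 0.0551, and that of HIST4H4 also without shNC replicate 2, at 0.0596. The single H2B gene called, HIST1H2BF, had 0.825, 3.31 and 0.676 CPM in shNR0B1, against 5.22, 5.52 and 3.52 CPM in shNC (−1.57 ± 0.52; adjusted p just under the threshold), and its call was lost in 11 of the 12 fits that left out 1 library, all but that without shNR0B1 replicate 2, at adjusted p up to 0.145.

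Several of the most abundant clustered genes did not pass in either arm. HIST1H2BC had 232, 188 and 193 CPM in NR0B1_OE, against 128, 187 and 182 CPM in OEC, and 329, 119 and 261 CPM in shNR0B1, against 409, 378 and 324 CPM in shNC. The overexpression groups did not overlap by a narrow margin, and the knockdown groups did. HIST2H4A, HIST1H4C, HIST1H2BD, HIST1H2BL and HIST1H3B had log2 fold changes of 0.38, 0.33, 0.04, 0.46 and 0.57 under overexpression. In the knockdown these were −0.26, −1.02, −0.69, −0.54 and −1.04, with adjusted p from 0.0951 (HIST1H3B) to 0.425 (HIST2H4A). All 5 were therefore above 0 in one arm and below 0 in the other, without passing the test in either.

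HIST1H3H and HIST2H2AA4 were called higher under overexpression and lower in the knockdown. Fold changes above 0 in overexpression and below 0 in knockdown were found for 40 of 56 clustered genes (71.4%), for 2 of 10 variant genes (20%) and for 24.8% of all genes. The test of the difference between the arms, overexpression minus knockdown, called 14 clustered genes higher, or 25%, against 13.1% of all genes, and 0 lower, against 12.6%. At an unadjusted p under 0.05 there were 32 clustered genes, and DESeq2 and limma called 20 and 22 higher and 0 lower. The count was 28 and 26 without shNR0B1 replicates 1 and 2, 9 without NR0B1_OE replicate 1 or 2 or shNC replicate 1 or 2, and 8 without OEC replicate 3. In the same order, 10.5%, 14.9%, 10.7%, 10.4%, 10.6%, 10.6% and 10.2% of all genes were called higher in these fits. The difference was above 0 for 56 of 56 clustered genes, with a median of 1.20, where it was above 0 for 46.7% of all genes. H2A genes made up 8 of the 14, H4 genes 3, H3 genes 2 and H2B genes 1.

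Among these, HIST2H2AA4 differed by 1.48 ± 0.24 log2 units (adjusted p = 0.00187) and HIST3H2A by 1.52 ± 0.29 (0.00362). HIST3H2A had 28.9, 29.3 and 28.8 CPM in shNR0B1, against 35.9, 37.1 and 31.0 CPM in shNC, a difference that was small and did not pass (−0.26 ± 0.20; adjusted p = 0.371). Its difference between the arms thus came mainly from overexpression, while that of HIST1H2AC (1.21 ± 0.27; adjusted p = 0.00777) came mainly from the knockdown. HIST4H4 differed by 1.62 ± 0.35 (adjusted p = 0.00663), with 110, 102 and 92.1 CPM in NR0B1_OE, against 75.1, 56.6 and 55.2 CPM in OEC (0.70; adjusted p = 0.0678). HIST2H2BF, the only H2B gene, had 581, 566 and 524 CPM in NR0B1_OE, against 331, 346 and 329 CPM in OEC, and 699, 305 and 620 CPM in shNR0B1, against 1027, 847 and 707 CPM in shNC (difference 1.40 ± 0.35; adjusted p = 0.014). It passed in neither arm alone, although its groups did not overlap in either. HIST1H3H (1.78) and HIST1H2AE (3.91) were called too, as were HIST2H2AC (1.25), HIST1H2AJ (1.59), HIST1H2AL (2.31), HIST1H2AM (1.58), HIST1H4H (1.60), HIST1H3F (1.10) and HIST1H4J (1.34). The adjusted p was 0.0354 for HIST1H2AJ, just under 0.05 for HIST1H2AL, 0.0302 for HIST1H2AM, 0.0212 for HIST1H4H, 0.045 for HIST1H3F and 0.0427 for HIST1H4J. The calls of HIST1H2AJ and HIST1H2AM were lost without NR0B1_OE replicate 1 or 2, OEC replicate 2 or 3, or shNC replicate 1 or 2, and that of HIST1H2AJ also without NR0B1_OE replicate 3 or shNC replicate 3, at adjusted p up to 0.0785. The call of HIST1H2AL was lost without any 1 library but OEC replicate 2 or shNR0B1 replicate 3 (up to 0.116), that of HIST1H3F without any 1 but shNR0B1 replicate 1 or 2 (up to 0.0941), and that of HIST1H4J without any 1 but OEC replicate 2 or shNR0B1 replicate 1 or 2 (up to 0.0938). That of HIST1H4H was lost without OEC replicate 2 or 3, at adjusted p of 0.0531 and 0.0517. In the annotation HIST1H2AL lies within the span of HIST1H2BN and HIST1H2AM overlaps that of HIST1H3J, in both cases on the same strand.

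Calls were spread over the loci. The HIST1 cluster holds 55 genes between positions 25726132 and 27893843 of chromosome 6, of which 34 lie up to position 26285638 and 21 from position 27125897 on. In the knockdown 7 of 24 tested genes were called lower in the first stretch and 3 of 20 in the other, 2 of 10 of the HIST2 genes on chromosome 1, and the 1 HIST4 gene, while the 1 tested HIST3 gene was not called. Median fold changes were −0.90, −0.58 and −0.64 in the stretches of HIST1 and in HIST2. Calls in the knockdown were also spread over genes with little and much shared sequence: 10 of 42 genes that share at most 10% of their words were called lower, and 3 of 14 that share more.

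The control groups of the arms differed from each other in clustered genes. Between OEC and shNC, 43 of 56 clustered genes were called lower in OEC, or 76.8%, against 16.1% of all genes. The fold change was below 0 for 56 of 56, with a median of −1.50, and 52 had OEC libraries all below shNC libraries, against 26.7% of all genes, where 27.3% of all genes had them all above. HIST2H2AA4, for one, was 1.47 log2 units lower in OEC. This comparison shares its control libraries with both arms and with the difference of the arms, and what sets the control groups apart (vector, culture or time of preparation) cannot be told apart from the arm. A level under overexpression therefore cannot be set beside one in the knockdown: NR0B1_OE libraries, which are above their own control, hold less clustered histone mRNA than shNC.

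**Figure D3:**
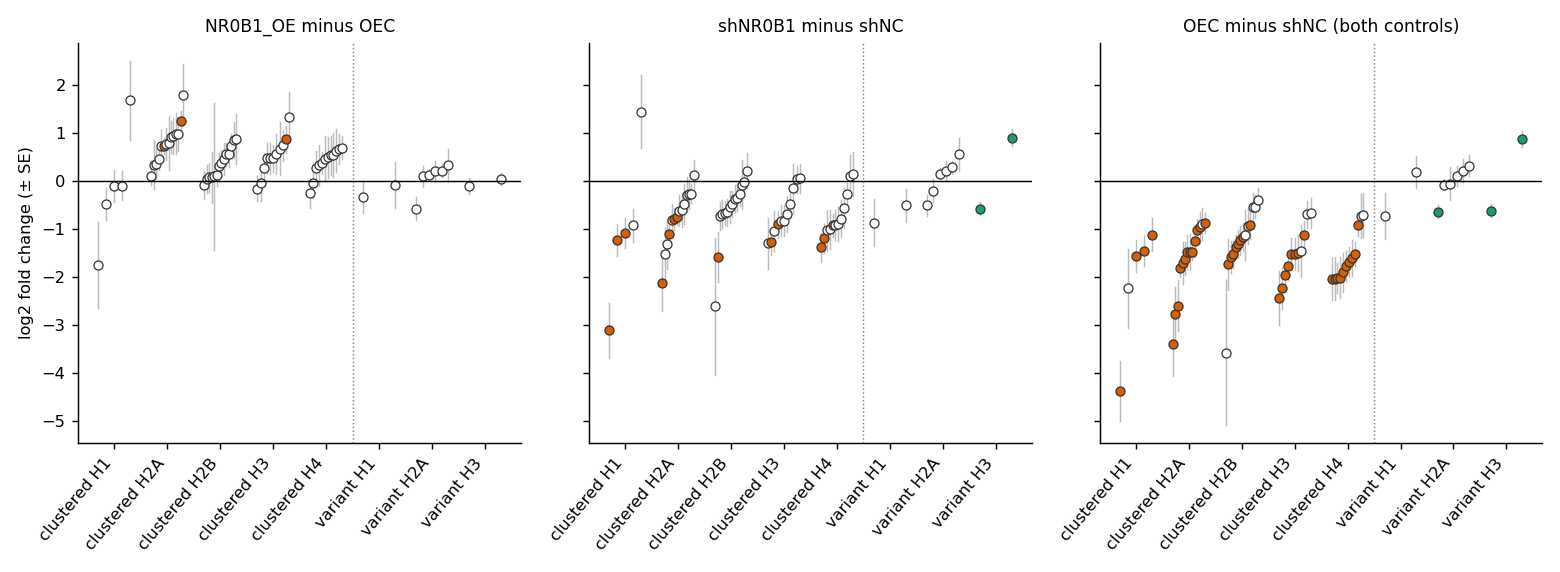
Log2 fold change with SE of each tested histone gene, by family, for NR0B1_OE minus OEC, shNR0B1 minus shNC, and OEC minus shNC; filled points passed an adjusted p of 0.05. Clustered genes lie mostly above 0 in the first (47 of 56), mostly below 0 in the second (49 of 56) and all below 0 in the third.

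Among variant genes, the pair that encodes H3.3 moved in opposite directions in the knockdown. H3F3A (chr1:226061851-226072001, + strand) had 220, 139 and 247 CPM in shNR0B1, against 103, 109 and 111 CPM in shNC, and rose by 0.91 ± 0.17 log2 units (adjusted p = 0.00377). H3F3B (chr17:75776434-75785893, − strand) had 434, 567 and 441 CPM in shNR0B1, against 678, 658 and 798 CPM in shNC, and fell by 0.57 log2 units (SE 0.13; adjusted p = 0.0112). No library of one group overlapped the other for either gene. They encode the same protein from different genes. In the windows printed above H3F3B has 4 CCAAT matches with a TATAAA and an octamer match, where H3F3A has 1 CCAAT match and none of the other motifs. The H3F3A window covers the start of the transcript H3F3A-204. H3F3A-203, which had a higher mean in every group, starts outside it, at position 226062678, and the sequence before that start is not described here. Whether these motifs bear on the changes was not tested. The call of H3F3A held in every alternative tried, and that of H3F3B was lost with the knockdown arm alone, at an adjusted p of 0.0549. These 2 genes were the only variant genes called in the knockdown, 1 of 10 in each direction, against the 12.4% and 11.5% of all genes given above.

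Under overexpression neither passed the test. H3F3A had 182, 177 and 195 CPM in NR0B1_OE, against 195, 194 and 206 CPM in OEC (−0.10; adjusted p = 0.697), and H3F3B had 519, 475 and 450 CPM, against 447, 440 and 510 CPM (0.05; adjusted p = 0.831). The difference between the arms passed for both, at −1.01 ± 0.24 for H3F3A (adjusted p = 0.0106) and 0.61 ± 0.19 for H3F3B (adjusted p = 0.0331). This call of H3F3B was lost without NR0B1_OE replicate 1 or 2, OEC replicate 2, shNR0B1 replicate 1 or 3, or shNC replicate 3, at adjusted p from 0.0528 to 0.0787. H3F3A made up 33.6%, 19.7% and 36.0% of the counts of both in shNR0B1, against 13.2%, 14.3% and 12.2% in shNC. It made up 25.9%, 27.2% and 30.2% in NR0B1_OE, against 30.4%, 30.6% and 28.8% in OEC. Summed H3.3 mRNA varied less, at 653, 706 and 688 CPM in shNR0B1, against 781, 768 and 909 CPM in shNC. shNC was the group with the lowest share of H3F3A, and it differed from OEC in both genes (0.88 for H3F3A, adjusted p = 0.0032, and −0.61 for H3F3B, adjusted p = 0.00575, as OEC minus shNC). H3F3A is overlapped by the antisense gene AL512343.2, and H3F3B by UNK on the other strand, and reads from such overlaps cannot be told apart without strand.

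**Figure D4:**
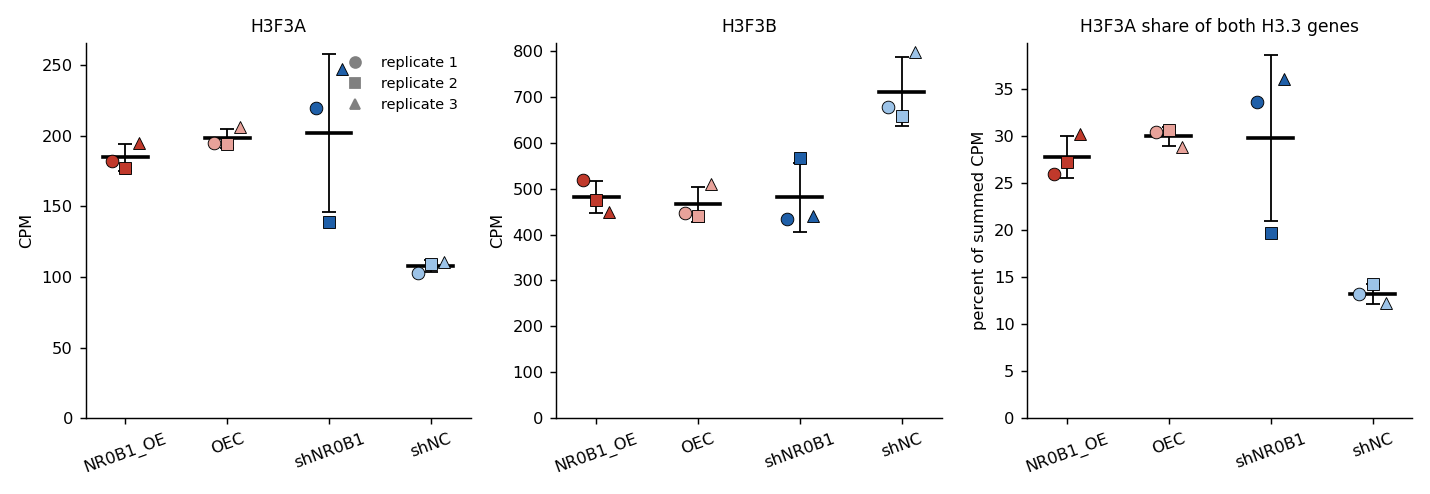
CPM of H3F3A and of H3F3B, and the share of H3F3A in their summed counts, for each library, with the group mean and SD. In shNR0B1 the share is 19.7% to 36.0%, above the 12.2% to 14.3% of shNC, while NR0B1_OE and OEC lie between 25.9% and 30.6%.

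The other 8 tested variant genes did not pass in either arm. Under overexpression edgeR called 0 of 10 variant genes, with 1 at an unadjusted p under 0.05, and DESeq2 and limma called 0. Their median fold change was 0.08 under overexpression and −0.02 in the knockdown. The shNR0B1 libraries lay far apart in H1F0, which encodes H1.0. It had 227, 611 and 89.2 CPM in shNR0B1, against 586, 493 and 608 CPM in shNC (−0.86 ± 0.49; adjusted p = 0.216). Replicate 2, which had the lowest sum of clustered histones, had the highest H1F0 of all 12 libraries, and the other shNR0B1 libraries had the lowest. H1FX, a second linker variant, had 64.2, 96.1 and 26.1 CPM in shNR0B1, against 74.1, 85.8 and 103 CPM in shNC. Under overexpression H1F0 had 367, 304 and 298 CPM, against 390, 301 and 335 CPM in OEC, and H1FX had 82.5, 76.5 and 80.2 CPM, against 89.3, 96.4 and 114 CPM. H1FX groups did not overlap there, without passing the test (−0.33 ± 0.34; adjusted p = 0.524).

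H2AFX, the one variant with a stem-loop, had 162, 47.8 and 171 CPM in shNR0B1, against 96.1, 86.9 and 76.1 CPM in shNC (0.56 ± 0.35; adjusted p = 0.265). Replicate 2 lay below the controls and the other 2 above them. Under overexpression it had 94.3, 116 and 105 CPM, against 75.1, 87.2 and 87.7 CPM (0.33 ± 0.35; adjusted p = 0.53), with no overlap between the groups. H2AFZ had 71.6, 49.0 and 97.1 CPM in shNR0B1, against 102, 114 and 92.0 CPM in shNC (−0.50; adjusted p = 0.118), and 165, 127 and 152 CPM in NR0B1_OE, against 105, 134 and 145 CPM in OEC. H2AFV, the other H2A.Z gene, had 128, 65.3 and 131 CPM in shNR0B1, against 91.5, 94.1 and 92.3 CPM in shNC. The groups of both H2A.Z genes overlapped in both arms. H2AFY, for macroH2A1, differed little between groups, with 211, 198 and 206 CPM in NR0B1_OE, 200, 171 and 187 CPM in OEC, 220, 190 and 248 CPM in shNR0B1 and 191, 191 and 204 CPM in shNC. Between the control groups, 1 of 10 variant genes was called higher in OEC (H3F3A, against 17.2% of all genes) and 2 lower (H3F3B, and H2AFY2, for macroH2A2, by −0.63, adjusted p = 0.00712).

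Transcripts of a single clustered gene did not always move together. Of the 82 clustered transcripts, 36 end at or after the stem-loop, 39 have 1 exon and no match, and 7 from 6 genes are spliced in GENCODE 29 and hold none. Summed, the 13 transcripts that end within 100 bases of the loop had 1435, 1284 and 1261 CPM in NR0B1_OE, against 915, 898 and 835 CPM in OEC, and 2007, 948 and 1508 CPM in shNR0B1, against 2655, 2709 and 2303 CPM in shNC. The 7 spliced transcripts without a loop had 239, 204 and 209 CPM, against 137, 137 and 153 CPM, and 271, 147 and 243 CPM, against 344, 321 and 274 CPM, in the same groups. Both kinds were higher in every NR0B1_OE library and lower in every shNR0B1 library than in the controls. The log2 differences were 0.59 and 0.61 under overexpression and −0.78 and −0.51 in the knockdown. The 23 transcripts that run over 100 bases past the loop differed by 0.47 and −0.65. Expected counts divide reads among overlapping transcripts of a gene, so these values carry an error of assignment that the table does not give, and they were not tested.

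Behind that sum the spliced transcripts differed, as was seen after their values were examined. HIST1H2BD, an H2B gene, has a stem-loop transcript, HIST1H2BD-202, with 179, 44.9 and 134 CPM in shNR0B1, against 225, 229 and 189 CPM in shNC. Its spliced transcript, HIST1H2BD-201, had 11.2, 25.2 and 15.7 CPM in shNR0B1, against 6.44, 5.16 and 7.21 CPM in shNC. The stem-loop form was lower and the spliced form higher in every knockdown library. HIST1H2BC-201, a spliced form, had 2.82, 9.08 and 5.15 CPM in shNR0B1, against 1.63, 2.86 and 1.42 CPM in shNC, where the stem-loop form HIST1H2BC-202 had 326, 110 and 256 CPM, against 407, 375 and 322 CPM. In both genes replicate 2 had the most of the spliced form and the least of the other. HIST1H2AC-203, spliced without a loop, had 12.4, 12.9 and 10.3 CPM in shNR0B1, against 11.6, 9.42 and 9.92 CPM in shNC. HIST1H2AC-202, which is spliced too but holds the stem-loop, had 190, 93.6 and 133 CPM, against 343, 295 and 302 CPM. This pair therefore does not set a spliced form against an unspliced one. By contrast the spliced HIST2H2BF-204, the largest of the kind, moved as the rest did. It had 159, 137 and 145 CPM in NR0B1_OE, against 88.0, 92.3 and 94.6 CPM in OEC. In shNR0B1 it had 187, 73.6 and 168 CPM, against 265, 238 and 205 CPM in shNC. The spliced HIST1H2BJ-203 had a mean of 41.3 CPM in shNR0B1, against 55.9 CPM in shNC, with overlapping groups. HIST1H2BN-203 had 0.835, 2.37 and 0.7 CPM in shNR0B1, against 1.83, 1.65 and 3.04 CPM in shNC, also with overlap. The last spliced form without a loop, HIST1H2BJ-202, was at 0 in every library. HIST1H2BD is overlapped by the antisense gene AL353759.1.

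Genes that make and process histone mRNA were examined as a list. Of 21 tested, 2 were called higher and 1 lower under overexpression, against 9.87% and 8.2% of all genes, and 3 were called in the knockdown, all lower, against 11.5%. Without shNR0B1 replicate 2, 5 were higher and 1 lower under overexpression, and 3 higher and 4 lower in the knockdown. In the same order, the shares of all genes in that fit were 14.8%, 13.2%, 14.2% and 14.7%. Without OEC replicate 1 as well, the counts were 5, 4, 4 and 4, against 20%, 17.8%, 19.2% and 18.8% of all genes. ZNF473, a zinc finger protein of the histone processing complex, rose by 0.55 ± 0.15 log2 units (adjusted p = 0.0303), and CSTF2T, a cleavage factor, by 0.48 ± 0.13 (0.0285). LSM11, a subunit of the U7 particle that cuts histone mRNA, fell by 1.26 log2 units (adjusted p = 0.0236), with 5.75, 7.42 and 3.60 CPM in NR0B1_OE, against 8.08, 17.0 and 15.2 CPM in OEC. In the knockdown CPSF2, a cleavage subunit, LSM10, the partner of LSM11, and POU2F1 fell by 0.35, 0.59 and 0.49 log2 units (adjusted p = 0.0149, 0.0234 and 0.0453). SLBP had 44.8, 38.4 and 45.9 CPM in NR0B1_OE, against 24.8, 30.7 and 33.2 CPM in OEC, with no overlap and without passing (0.54 ± 0.25; adjusted p = 0.147). NPAT did not pass in either arm, at −0.18 and 0.29 (adjusted p = 0.235 and 0.0653).

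Of 18 decay genes 1 was called lower under overexpression, against 8.2% of all genes, and 2 in the knockdown, against 11.5%. TUT1, a terminal uridylyl transferase, was lower in both arms, by 0.89 and 0.54 log2 units (adjusted p = 0.00301 and 0.0161), and EXOSC10, an exosome nuclease, was lower in the knockdown (−0.45; adjusted p = 0.0411). DESeq2 called 3 higher and 1 lower under overexpression and 4 lower in the knockdown, against 13.8%, 12.1% and 14.6% of all genes. Without shNR0B1 replicate 2, 3 were higher and 2 lower under overexpression, and 1 higher and 4 lower in the knockdown. The shares of all genes in that fit were 14.8%, 13.2%, 14.2% and 14.7%. Whether the arms differ in TUT1 was tested and did not pass (adjusted p = 0.197). Of 22 chaperone and deposition genes, 1 was called under overexpression, higher, and 2 higher and 1 lower in the knockdown, against the 9.87%, 12.4% and 11.5% of all genes. SRCAP, the motor of a complex that deposits H2A.Z, rose under overexpression (0.81 ± 0.21; adjusted p = 0.026). HJURP, the chaperone of the centromeric H3, and ASF1B rose in the knockdown (0.73 and 0.81; adjusted p = 0.0175 and 0.0386), while ASF1A, its paralog, fell (−0.75; adjusted p = 0.0411). Without shNR0B1 replicate 2, 5 were higher under overexpression, and 4 higher and 1 lower in the knockdown, against 14.8%, 14.2% and 14.7% of all genes.

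Of 25 genes of DNA replication tested, 1 was called under overexpression, PCNA, which was lower, against 8.2% of all genes, and 4 were called in the knockdown, all higher, against 12.4%. PCNA, the sliding clamp of DNA polymerase, had 519, 516 and 479 CPM in NR0B1_OE, against 724, 851 and 816 CPM in OEC (−0.66 ± 0.09; adjusted p = 0.00206). It had 488, 469 and 484 CPM in shNR0B1, against 189, 200 and 187 CPM in shNC (1.32 ± 0.09; adjusted p = 3.94e-05). So PCNA fell where clustered histones were higher and rose where they were lower, and all 3 shNR0B1 libraries were alike in it. CDK2 and the cyclins CCNE1 and CCNE2, which act at the entry to S phase, rose in the knockdown by 0.84, 0.91 and 2.34 log2 units (adjusted p = 0.00949, 0.0395 and 0.0346). The groups did not overlap for CDK2 and overlapped for both cyclins. CCNE2, a low gene, had 8.92, 3.01 and 28.5 CPM in shNR0B1, against 2.41, 4.45 and 1.16 CPM in shNC. The summed list was 3106, 1495 and 3605 CPM in shNR0B1, against 1973, 2023 and 1621 CPM in shNC, and 2052, 1841 and 2015 CPM in NR0B1_OE, against 1921, 2037 and 2054 CPM in OEC. In shNR0B1, then, replicate 2 was lowest in both the replication list and the clustered sum, while the other libraries were above their controls in the first and below them in the second. The part of the library that stands apart in these counts was tested only by leaving it out. Without shNR0B1 replicate 2, 15 of 25 were called higher in the knockdown and 6 under overexpression, with 1 called lower under overexpression. In the same order, 14.2%, 14.8% and 13.2% of all genes were called in that fit. Without OEC replicate 1 as well, 17 and 8 were called higher, against 19.2% and 20% of all genes. The median fold change of the list was 0.40 in both arms.

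Of 18 mitosis genes 2 were called higher in the knockdown, against 12.4% of all genes. CCNB1, a mitotic cyclin, rose in the knockdown (0.59 ± 0.19; adjusted p = 0.0424), as did PLK1, a mitotic kinase (0.58; adjusted p = 0.04966), and edgeR, DESeq2 and limma called 0 under overexpression, where 1 had an unadjusted p under 0.05 by edgeR. limma called 0 in the knockdown, against 9.84% of all genes higher and 14.1% lower. Of the most abundant of them, TOP2A and TPX2, the first had 638, 752 and 707 CPM in NR0B1_OE, against 608, 897 and 1058 CPM in OEC. Without shNR0B1 replicate 2, 6 of 18 rose in the knockdown, against 14.2% of all genes. Without both libraries that stand apart 15 rose in the knockdown, and 1 was higher and 5 lower under overexpression. In the same order, the shares of all genes in that fit were 19.2%, 20% and 17.8%. Of 11 tested genes that mark or bring about exit from the cell cycle, 5 fell under overexpression, against 8.2% of all genes. They include CDKN1B, the inhibitor p27, with 42.7, 37.4 and 31.0 CPM in NR0B1_OE, against 129, 92.1 and 102 CPM in OEC (−1.54 ± 0.22; adjusted p = 0.00206). BTG2 and CCNG2, which restrain proliferation, fell by 1.57 and 1.86 log2 units (adjusted p = 0.00194 and 0.0173). The other members called were CDKN1A, the inhibitor p21 (−1.04), and CDKN2C, the inhibitor p18 (−0.82). In the knockdown 1 of 11 was called, GADD45A, a growth arrest gene, at −2.17 (adjusted p = 7.85e-05), against 11.5% of all genes lower. Without shNR0B1 replicate 2, 2 were higher and 2 lower in the knockdown, and 1 higher and 5 lower under overexpression, against 14.2%, 14.7%, 14.8% and 13.2% of all genes. The part of the cell cycle in the histone values was not tested.

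**Figure D5:**
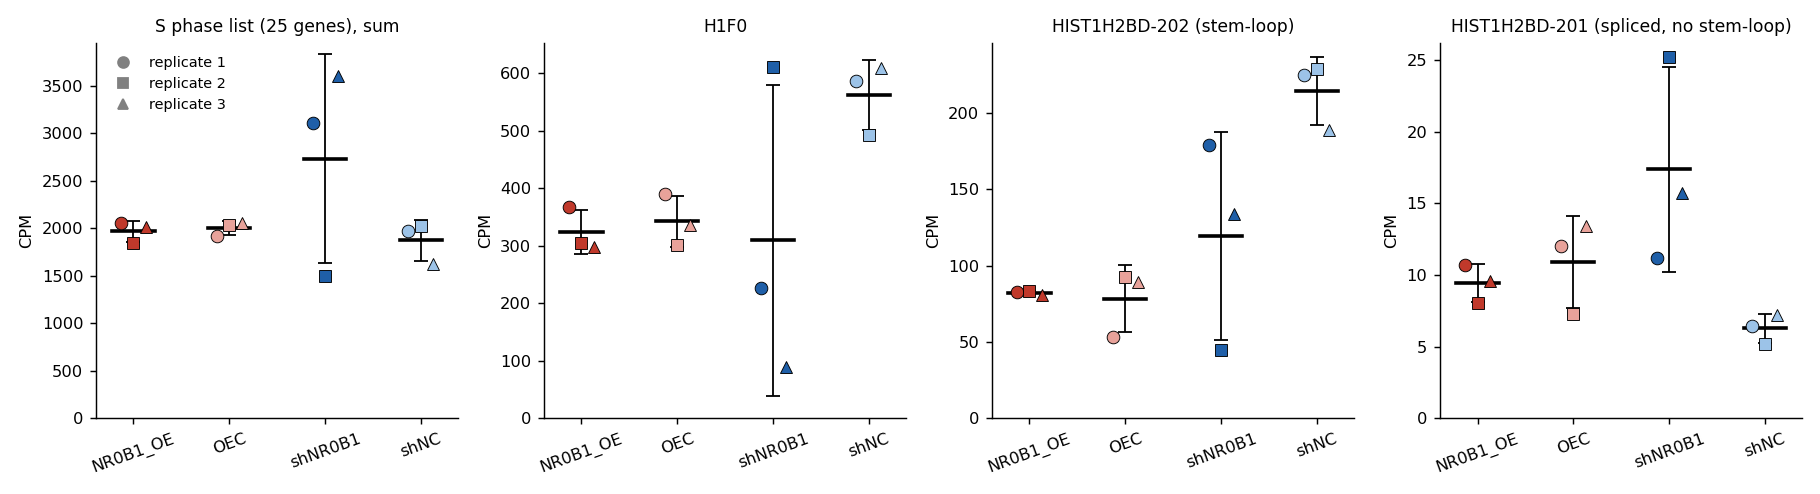
CPM of the summed replication list, of H1F0, and of the stem-loop (HIST1H2BD-202) and spliced (HIST1H2BD-201) transcripts of HIST1H2BD, for each library, with the group mean and SD. shNR0B1 replicate 2 has the lowest replication sum (1495 CPM), the highest H1F0 (611 CPM) and the most of the spliced transcript (25.2 CPM) of all libraries.

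CD68, a macrophage gene that many other cells also express, was the marker of other cell types with the highest level, and it differed between libraries. It had 42.3, 134 and 42.4 CPM in shNR0B1, against 46.7, 38.0 and 33.9 CPM in shNC, and 135, 108 and 97.8 CPM in NR0B1_OE, against 107, 131 and 121 CPM in OEC. THY1, a fibroblast marker that some tumour lines also express, had 6.08, 4.05 and 2.83 CPM in shNR0B1, against 0.939, 1.25 and 1.21 CPM in shNC, with no overlap, and at most 0.601 CPM in NR0B1_OE and OEC. The other fibroblast markers PDGFRB, DCN and COL1A2 did not pass 0.157 CPM. The part of these markers in the histone values was not tested. The leukocyte gene CD3E was at 0 and PTPRC did not pass 0.0515 CPM. Summed, the list of other cell types was 98.3 to 135 CPM in NR0B1_OE, 108 to 132 in OEC, 45.3 to 139 in shNR0B1 and 35.2 to 47.8 in shNC. The summed A549 markers were 12742 to 15680, 13156 to 17047, 8172 to 14043 and 13581 to 14729 CPM in the same order, the lowest in the shNR0B1 library that stood apart.

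Clustered genes moved together over the libraries. Of the other 55 tested clustered genes, 51 had a Spearman correlation with HIST2H2AA4 over 0.5 across the 12 libraries, with a median of 0.82 and a range of 0.35 to 0.99. These are descriptions over libraries that fall into 4 groups, and members share reads. Outside the histone genes, those most like HIST2H2AA4 were ZC3H8 (0.97), EXOC3 (0.96) and ENTR1 (0.95), and those most like H3F3B were PLEKHH2 (0.95), OTUD7B (0.93) and SIPA1L1 (0.92).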

How the data were processed

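The authors deposited 1 table with expected counts and FPKM values per transcript for the 12 libraries, per the file headers. The submitters' processing notes name RSEM, StringTie 1.3.1, Bowtie2 2.2.8, HISAT2 2.0.5 and fastp. They also name mouse builds although the identifiers are human, so coordinates come from GENCODE 29 (GRCh38), which holds 82237 of 82270 Ensembl rows. Filters and the strand of counting are not given by labels or file headers. Each library began with 3 µg of RNA per the labels. Both units were summed over all Ensembl rows of a symbol (121 rows for histone genes) and counts rounded; 184 symbols that had become dates were restored. The 13977 assembled rows, with 13.3% to 15.4% of counts, were left out.

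Genes with an FPKM of at least 1 in 3 libraries, 11908 in all, entered 1 edgeR 4.0.16 fit (R 4.3.3; TMM, robust quasi-likelihood, a mean per group, 8 residual degrees of freedom), with Benjamini-Hochberg adjustment and calls at 0.05. The biological coefficient of variation was 24.5%. SE is the absolute log2 fold change over the square root of F, and is unreliable at low counts. Alternatives were DESeq2 1.42.0, limma 3.58.1 on log2(FPKM + 1), which understates changes of low genes, other scaling, no filter, 1 arm alone, assembled rows added, a replicate block and omitted libraries. Members, lists and tests were chosen with earlier results of these data known. Text names members called in an arm or in the difference, the highest by FPKM (12 clustered, 8 variant) and up to 3 called members per list and arm. HIST1H1B, spliced transcripts, CDKN1A and CDKN2C, NPAT, SLBP and other further genes were named after their values were seen. Of a list of 16 RNAs without a poly(A) tail, 0 were among the genes measured, so it gave no values.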

Additional observations from a re-analysis of the deposited data

Results flagged for a closer look

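The response to overexpression minus the response to knockdown differed from 0 for 16 histone genes, each tested as a difference of fold changes with edgeR and an adjusted p under 0.05 over all 11908 genes. In log2 units the clustered H2A genes differed by 3.91 (HIST1H2AE), 2.31 (HIST1H2AL), 1.59 (HIST1H2AJ), 1.58 (HIST1H2AM), 1.52 (HIST3H2A), 1.48 (HIST2H2AA4), 1.25 (HIST2H2AC) and 1.21 (HIST1H2AC). The other clustered genes differed by 1.78 (HIST1H3H), 1.10 (HIST1H3F), 1.62 (HIST4H4), 1.60 (HIST1H4H), 1.34 (HIST1H4J) and 1.40 (HIST2H2BF). The variant genes H3F3A and H3F3B differed by −1.01 and 0.61. In 7 of the 16 the call was lost when 1 or more single libraries were left out: HIST1H2AL, HIST1H2AJ, HIST1H2AM, HIST1H3F, HIST1H4H, HIST1H4J and H3F3B. HIST1H2AE and HIST1H2AL are low genes, so the size of their differences is the least certain.

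Histone symbols also appear on 5 assembled transcripts that entered no comparison, since their symbols rest on similarity. Their mean expected counts per library were 2147 for HIST1H2BK, 967 for HIST1H2BO, 254 for H2AFX, 48.6 for H1FX and 24.0 for H2AFY. The HIST1H2BK row had 133, 98.3 and 105 CPM in NR0B1_OE, against 78.8, 75.0 and 83.2 CPM in OEC, and 173, 91.8 and 168 CPM in shNR0B1, against 200, 195 and 155 CPM in shNC. The Ensembl row of that gene held at most 16.1 CPM, so nearly all of its reads lie on the assembled row. With the row added, HIST1H2BK had log2 fold changes of 0.50 ± 0.22 under overexpression (adjusted p = 0.11) and −0.42 ± 0.21 in the knockdown (adjusted p = 0.159). HIST1H2BO had 0.56 ± 0.22 under overexpression (adjusted p = 0.083).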

How the results depend on the processing

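Of 34 calls of single members, 16 held in each of up to 20 alternatives, and of 664 recomputed values 551 stayed on the same side of the threshold, 113 no longer passed and 0 changed sign. Calls that held throughout were 1 of 3 clustered under overexpression, 5 of 13 in the knockdown and 8 of 14 in the difference. Clustered genes called higher under overexpression were 3, against 23 with that arm alone and 8 with DESeq2. They were 22 without both libraries that stand apart, and 1 to 25 leaving out 1 library. In the same order, 11.9%, 13.8%, 20% and 4.54% to 14.8% of all genes were called higher. Lower calls were 0, against 1 with the arm alone, where 10.2% of all genes were called lower. In the knockdown 13 were lower, against 5 with the arm alone and 22 without both libraries. They were 24 with limma, 24 with DESeq2 and 5 to 28 leaving out 1 library. In the same order, 7.98%, 18.8%, 14.1%, 14.6% and 6.49% to 14.7% of all genes were called lower. Higher calls were 0, against 2 without both libraries, where 19.2% of all genes were called higher. In the difference 14 were higher, against 25 without both libraries, 22 with limma and 8 to 28 leaving out 1 library. In the same order, 20.1%, 15.3% and 9.75% to 16.6% of all genes were called higher. Between controls the 43 lower calls ranged from 38 to 52, where 10.7% to 23.7% of all genes were called lower.

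Variant calls leaving out 1 library ranged from 0 to 1 in each direction under overexpression and 1 to 3 in each in the knockdown. In the difference they were 0 to 2 higher and 1 to 3 lower. Over all genes these fits called 4.54% to 14.8% higher and 2.24% to 13.2% lower under overexpression. In the knockdown they called 6.15% to 14.8% higher and 6.49% to 14.7% lower, and in the difference 9.75% to 16.6% and 8.17% to 16.1%. Without both libraries that stand apart, variant calls were 1 lower under overexpression, and 4 higher and 4 lower in the knockdown. They were 2 higher and 3 lower in the difference, and 2 higher between controls. In the same order, the shares of all genes were 17.8%, 19.2%, 18.8%, 20.1%, 18.7% and 24.1%. With the knockdown arm alone 0 were lower, and limma gave 0 higher in the difference, against 7.98% and 15.3% of all genes. Without the highest member the variant sum in the knockdown was −0.15 in place of −0.28. Clustered sums differed by 0.44 to 0.52 under overexpression and by −1.02 to −0.43 in the knockdown leaving out 1 library, and the log2 ratio of clustered to variant sums by 0.41 to 0.53 and −0.81 to −0.07. The causes of these moves were not tested.

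Same-numbered libraries of an arm deviated from their group means with correlations of 0.197, 0.131 and 0.00837 under overexpression and −0.00643, −0.0872 and −0.0591 in the knockdown. The highest with another number were −0.134, 0.131 and 0.0285, and 0.0945, 0.103 and 0.0351. These show no clear pairing by number, and with 3 libraries a group they cannot exclude it. With the replicate number as a block, clustered calls were 4 under overexpression, 14 in the knockdown and 15 in the difference, the 1 variant call higher in the difference went to 0, and calls over all genes were 1867, 2445 and 2770, against 2152, 2851 and 3054 without it. Expected counts of near-identical copies limit single members more than depth does, and values under 0.155 CPM rest on fewer than 3 counts.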
